A study of Mus musculus with 14 samples.

Results

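The 4 adult globin genes and Alas2 are the genes through which red blood cell RNA is seen in a tissue library, and they were followed here in the hippocampus of newborn mice. They were Hba-a1 (ENSMUSG00000069919), Hba-a2 (ENSMUSG00000069917), Hbb-bs (ENSMUSG00000052305), Hbb-bt (ENSMUSG00000073940) and Alas2 (ENSMUSG00000025270). They were chosen by gene symbol, as 5 of the 36118 genes in the count table, and all 5 passed the filter on low counts that kept 16637 genes for testing. Because they were proposed with their levels in these libraries already known, their levels are described and no test of them is given as support. The samples were hippocampi of mice labelled C57/BL6 (the study's methods name C57BL/6N for the KO line), collected on postnatal day 15, and each gave 1 polyA RNA library. The groups were 4 wild-type mice in room air (WT-RA), 4 wild-type mice in hyperoxia at 85% O2 (WT-O2), and 3 GSDMD-KO mice under either condition (KO-RA and KO-O2), each exposed from postnatal day 1 to 14. The KO is global, so blood cells carry it too, and comes from a small CRISPR/Cas9 deletion in exon 5 of Gsdmd, whose product forms membrane pores in pyroptosis. KO mice and WT littermates came from matings of heterozygotes.

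Hemoglobin is made of alpha chains, encoded by Hba-a1 and Hba-a2, and beta chains, encoded by Hbb-bs and Hbb-bt, each holding a haem group that binds oxygen. The genes are transcribed in erythroid precursors, and young red cells (reticulocytes) still carry their mRNA after the nucleus is lost. Alas2 is the erythroid enzyme of the first and rate-limiting step of haem synthesis, while Alas1 does this step in other cells. Neurons and glia make little of these transcripts, so in brain tissue they mostly come with blood in vessels, and the methods do not say whether the pups were perfused.

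Both globin pairs are so alike that their reads are hard to assign to 1 gene. In the GENCODE M21 transcripts, built on GRCm38, the Hba-a1 and Hba-a2 coding sequences are 429 bases long and differ at 1 base, C381T, and the Hbb-bs and Hbb-bt coding sequences are 444 bases long and differ at 1 base, C417T. Positions count from 1 at the first base of the start codon, the first gene's base is given first, and both identities are 99.8%. The stretch around each difference, positions 336 to 425 of the alpha genes and 355 to 444 of the beta genes, is shown to make clear how little separates the members of a pair. Capitals mark the base that differs.
Hba-a1: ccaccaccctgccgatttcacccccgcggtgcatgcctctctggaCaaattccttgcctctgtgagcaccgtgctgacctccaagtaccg
Hba-a2: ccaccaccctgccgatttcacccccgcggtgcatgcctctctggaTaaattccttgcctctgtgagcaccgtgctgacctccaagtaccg
Hbb-bs: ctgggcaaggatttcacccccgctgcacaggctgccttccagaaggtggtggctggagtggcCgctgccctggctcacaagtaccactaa
Hbb-bt: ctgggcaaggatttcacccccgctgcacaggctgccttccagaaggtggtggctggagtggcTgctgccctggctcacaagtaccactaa
Over whole transcripts, 71.3% of the 31-base words of Hba-a1 and 91.0% of those of Hba-a2 also occur in the other alpha gene, and some occur in the pseudogene Hba-ps4. For Hbb-bs and Hbb-bt the shares are 66.9% and 59.4%. Only 9.0% of the words of Hba-a2 occur in no other gene, compared with 28.6% for Hba-a1, 33.1% for Hbb-bs, 40.6% for Hbb-bt and 100% for Alas2. The split of counts within a pair is therefore uncertain, whereas the sum of a pair and Alas2 do not depend on it, apart from the words the alpha pair shares with Hba-ps4.

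The 250 bases before the transcription start are shown for 1 alpha gene, both beta genes and Alas2, because these genes varied together and because the promoters differ within the beta pair. The sequences are from RefSeq on GRCm38.p6. Capitals mark matches, on either strand, to the GATA motifs AGATAA and TGATAA, to CCACACCC (the box bound by KLF1), to the box CCAAT and to the TATA forms TATAAG and TATAAA.
Hba-a2 (chr11:32296242-32296491, + strand): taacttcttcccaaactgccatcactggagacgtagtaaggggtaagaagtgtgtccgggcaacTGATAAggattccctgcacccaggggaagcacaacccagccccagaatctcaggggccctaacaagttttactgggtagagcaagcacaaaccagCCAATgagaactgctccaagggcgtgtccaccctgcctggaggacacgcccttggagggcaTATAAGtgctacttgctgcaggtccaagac
Hbb-bs (chr7:103827929-103828178, - strand): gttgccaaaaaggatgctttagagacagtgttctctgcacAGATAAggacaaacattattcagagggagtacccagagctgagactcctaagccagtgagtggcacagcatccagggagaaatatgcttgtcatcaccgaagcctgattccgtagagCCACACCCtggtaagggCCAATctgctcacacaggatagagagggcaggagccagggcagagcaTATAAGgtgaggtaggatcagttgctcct
Hbb-bt (chr7:103813924-103814173, - strand): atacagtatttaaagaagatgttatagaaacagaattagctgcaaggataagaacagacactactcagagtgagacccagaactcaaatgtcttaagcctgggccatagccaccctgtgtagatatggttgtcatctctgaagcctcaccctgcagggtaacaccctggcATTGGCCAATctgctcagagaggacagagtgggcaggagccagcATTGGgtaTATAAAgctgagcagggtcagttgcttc
Alas2 (chrX:150547167-150547416, + strand): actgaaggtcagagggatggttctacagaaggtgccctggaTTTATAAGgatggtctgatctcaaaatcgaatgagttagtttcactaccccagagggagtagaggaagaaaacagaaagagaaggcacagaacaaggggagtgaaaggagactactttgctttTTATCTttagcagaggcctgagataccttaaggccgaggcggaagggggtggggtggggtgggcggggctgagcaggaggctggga
Hba-a2, and Hba-a1 likewise, held the GATA motif TGATAA with a CCAAT box and the TATA form TATAAG. Hbb-bs held the GATA motif AGATAA, the KLF1 box CCACACCC, the box CCAAT and the TATA form TATAAG. Hbb-bt held the CCAAT box 3 times and the TATA form TATAAA, and neither GATA motif nor CCACACCC as spelled here. Alas2 held the GATA motif AGATAA on the reverse strand, and a TATAAG that overlaps a reverse-strand TATAAA and lay far upstream of the start. Among 32851 promoters of the same length, 9.99% held AGATAA, 7.94% TGATAA, 3.2% CCACACCC, 33.8% CCAAT, 6.65% TATAAG and 12.4% TATAAA. These matches are a description of the letters and do not show that a factor binds.

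The libraries held 27272270 to 28257496 estimated counts, and the 4 globin genes together took 0.0159 to 0.0419% of them. Counting error alone was 0.93 to 1.52% for the globin sum and 6.9 to 10.7% for Alas2, so depth did not limit the globin sum. Gsdmd stood at 1.47 to 2.23 CPM (counts divided by library size, with TMM scaling) in the 8 WT libraries and at 0.82 to 1.5 in the 6 KO libraries, so its transcript was still counted in the KO. The study reports no measurable Gsdmd transcript by qRT-PCR and no detectable GSDMD protein in KO brains. Counts per gene do not show whether the counted RNA carries the deletion. Mouse GSD408 is titled hyperoxia in its record but has room air in the treatment field, and it was placed in WT-O2. The numbers of WT mice run from GSD398 to GSD408 and those of KO mice from GSD489 to GSD496, and genotype and any batch tied to these numbers cannot be told apart.

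Per kilobase of transcript, averaged over the 14 libraries, Hba-a2 stood highest at 186.19 CPM per kb, followed by Hba-a1 at 133.20, Hbb-bs at 115.09, Hbb-bt at 12.91 and Alas2 at 2.47. By mean CPM without regard to length, Hba-a2 ranked 2123rd and Hba-a1 2343rd among all 36118 genes, of which 16637 were tested. Hbb-bs ranked 3082nd, Hbb-bt 10461st and Alas2 11865th. Set against the number of genes tested, the alpha genes and Hbb-bs stood in the upper part, and Hbb-bt and Alas2 in the lower part.

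The summed adult globin level was lower in WT-O2 mice than in WT-RA mice, with no overlap between these groups, and was spread widely in both KO groups. In WT-RA it was 325.90, 334.99, 335.59 and 273.71 CPM in mice GSD398, GSD399, GSD400 and GSD401, with a mean of 317.54 ± 29.56 (SD, n = 4). In WT-O2 it was 208.46, 219.86, 242.89 and 177.06 CPM in mice GSD404, GSD405, GSD406 and GSD408, with a mean of 212.07 ± 27.38 (SD, n = 4). The highest WT-O2 library lay below the lowest WT-RA library. In KO-RA the sum was 279.57, 404.23 and 225.89 CPM in mice GSD489, GSD490 and GSD496, with a mean of 303.23 ± 91.49 (SD, n = 3). In KO-O2 it was 417.75, 159.39 and 281.26 CPM in mice GSD491, GSD494 and GSD495, with a mean of 286.13 ± 129.25 (SD, n = 3). The highest and the lowest of all 14 libraries were both KO-O2. The highest library of a group exceeded the lowest 1.23-fold in WT-RA, 1.37-fold in WT-O2, 1.79-fold in KO-RA and 2.62-fold in KO-O2. In order of the mean, the groups ran WT-RA, KO-RA, KO-O2 and WT-O2, and each neighbouring pair in this order overlapped. In bulk tissue, fewer red cells and less globin RNA per cell cannot be told apart.

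**Figure D1:**
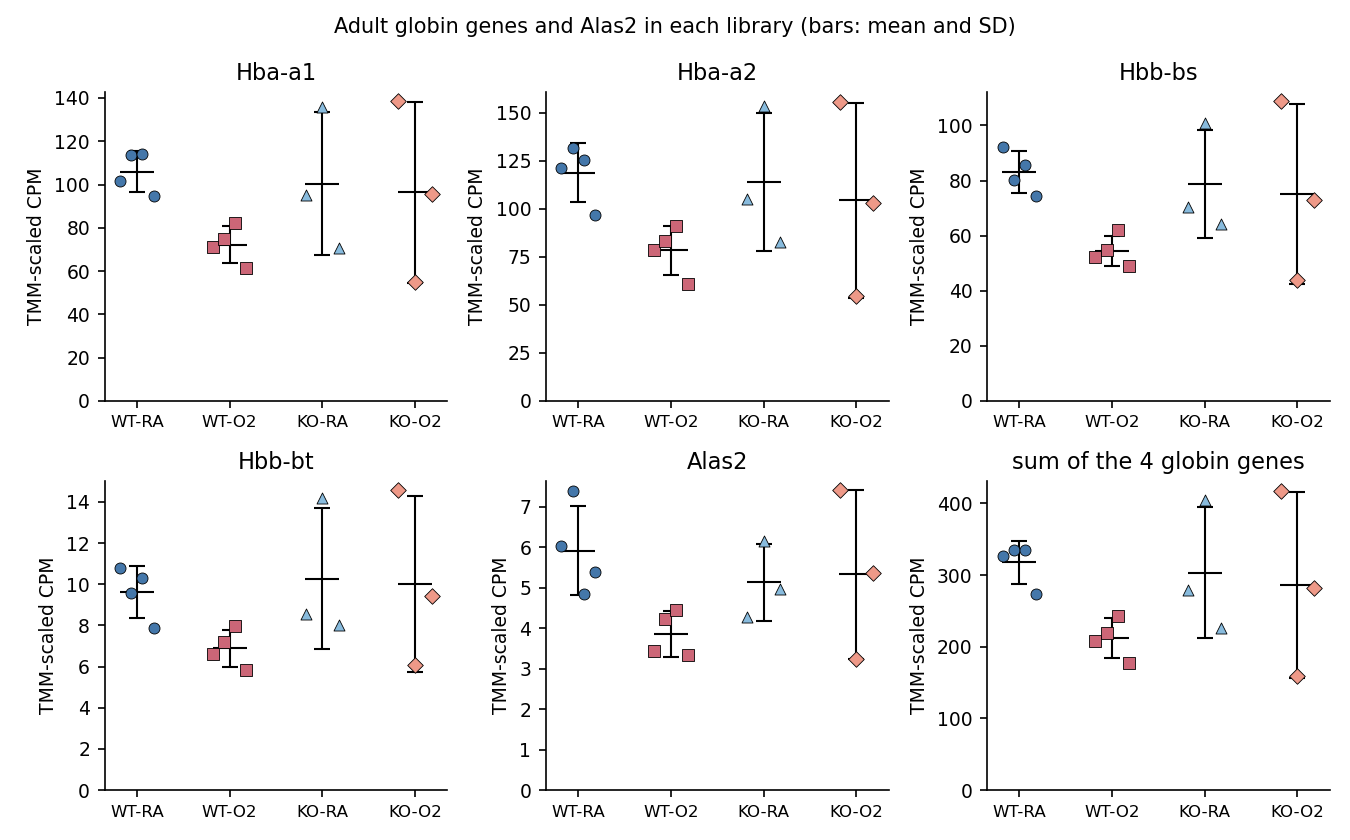
Each panel shows 1 gene, or the sum of the 4 globin genes, in TMM-scaled CPM (vertical axis) for the 4 groups (horizontal axis), with 1 point per mouse and bars for the mean and SD. The WT-O2 points lie below all WT-RA points for Hba-a1, Hba-a2, Hbb-bs, Alas2 and the sum, while KO-O2 holds both the highest and the lowest sum, 417.75 and 159.39 CPM.

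Hba-a2, 1 of the 2 alpha genes, was at 121.45, 131.49, 125.64 and 96.80 CPM in WT-RA and at 78.70, 83.16, 90.92 and 60.81 in WT-O2, in the same order of mice. It was at 105.26, 153.46 and 82.93 CPM in KO-RA and at 155.79, 54.56 and 103.12 in KO-O2. The WT groups did not overlap, whereas the KO groups did, with KO-O2 mice at both ends. Hba-a1, the other alpha gene, was at 101.57, 113.61, 114.02 and 94.65 CPM in WT-RA and at 71.01, 74.60, 82.07 and 61.40 in WT-O2. It was at 95.19, 135.63 and 70.52 CPM in KO-RA and at 138.55, 55.00 and 95.66 in KO-O2. Again the WT groups were separate and the KO groups were not.

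Hbb-bs, the major adult beta gene here, was at 92.08, 80.30, 85.65 and 74.36 CPM in WT-RA and at 52.15, 54.89, 61.93 and 49.00 in WT-O2. It was at 70.58, 100.94 and 64.40 CPM in KO-RA and at 108.85, 43.74 and 73.02 in KO-O2. The WT groups were separate for this gene too. Hbb-bt, the minor beta gene, was at 10.80, 9.58, 10.28 and 7.89 CPM in WT-RA and at 6.59, 7.20, 7.96 and 5.85 in WT-O2. In KO-RA it was at 8.54, 14.20 and 8.04 CPM, and in KO-O2 at 14.56, 6.09 and 9.45. This was the member whose WT groups touched, since 7.96 CPM in WT-O2 mouse GSD406 exceeded 7.89 CPM in WT-RA mouse GSD401.

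Alas2, the erythroid enzyme of haem synthesis, was at 6.03, 7.39, 4.84 and 5.38 CPM in WT-RA and at 3.44, 4.23, 4.46 and 3.33 in WT-O2. In KO-RA it was at 4.27, 6.15 and 4.98 CPM, and in KO-O2 at 7.41, 3.23 and 5.36. All WT-O2 values were below all WT-RA values, and KO-O2 mouse GSD491 was the highest and GSD494 the lowest library of all, as for the globin sum.

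The comparison of WT-O2 with WT-RA asks what 2 weeks of hyperoxia left in the WT hippocampus at postnatal day 15. Differences are log2 ratios of the groups' geometric means, with an SE from the spread between mice. The globin sum differed by -0.59 (SE 0.12), or -33.4%. The genes differed by -0.56 (SE 0.11) for Hba-a1, -0.61 (SE 0.16) for Hba-a2, -0.61 (SE 0.10) for Hbb-bs, -0.48 (SE 0.14) for Hbb-bt and -0.61 (SE 0.17) for Alas2. All 5 differences thus had nearly the same size, between 28.3 and 34.5% lower. Of the 5 genes, 4 were lower in WT-O2 without overlap, while 3.04% of all genes tested were lower without overlap in this comparison. These values helped to choose the genes, and nothing is read from this count. With mouse GSD408 placed in room air, as its treatment field has it, the difference of the sum was -0.34, and the WT groups then overlapped. With this mouse left out, it was -0.50.

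In the KO, the same exposure left no difference that stood out from the spread. The globin sum of KO-O2 differed from that of KO-RA by -0.15 (SE 0.47), Hbb-bs by -0.13 (SE 0.43) and Alas2 by -0.01 (SE 0.38). None of the 5 genes was free of overlap, and 11.8% of all genes tested were. The direction rested on single mice, since the sum differed by -0.48 without KO-O2 mouse GSD491 and by 0.22 without KO-O2 mouse GSD494, while leaving out KO-RA mouse GSD490 gave 0.08. The KO difference minus the WT difference, the interaction, was 0.44 (SE 0.49) for the sum and 0.60 (SE 0.42) for Alas2. The response to hyperoxia of the globin genes was therefore not resolved as differing between the genotypes.

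In room air, KO-RA and WT-RA overlapped for all 5 genes, with a difference of -0.10 (SE 0.26) for the sum and -0.20 (SE 0.20) for Alas2, and 19.6% of all genes tested did not overlap in this comparison. Under hyperoxia, KO-O2 exceeded WT-O2 by 0.33 (SE 0.42) for the sum, by 0.46 (SE 0.38) for Hbb-bt and by 0.40 (SE 0.36) for Alas2, again with overlap for all 5, where 19% of all genes tested did not overlap. The difference of the sum under hyperoxia was 0.01 without KO-O2 mouse GSD491 and 0.70 without KO-O2 mouse GSD494. The comparisons share groups, WT-RA and WT-O2 each standing in more than 1 of them, and their values are not independent.

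**Figure D2:**
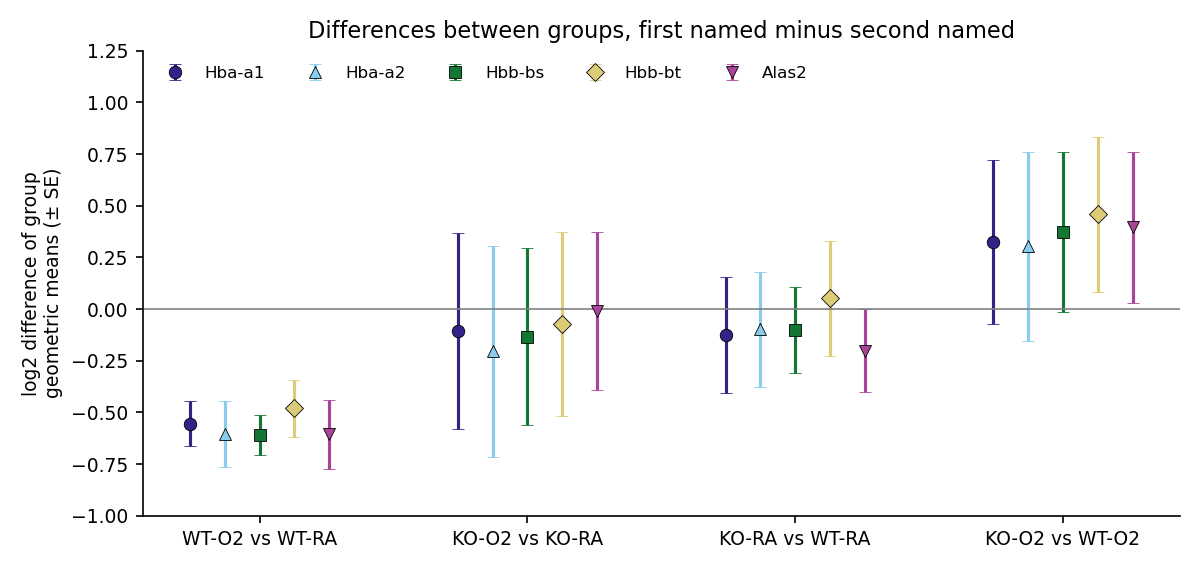
The vertical axis gives the log2 difference of group geometric means, first named minus second named, with the SE as the bar, for the 5 genes (colours and symbols) in the 4 comparisons (horizontal axis). The 5 genes sit near -0.6 in WT-O2 vs WT-RA with short bars, while in both comparisons that involve KO-O2 the bars are about as long as the differences or longer.

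For the record of the fit across all genes, edgeR's quasi-likelihood test called 0 of the 5 genes in any comparison. Calls took the limits of the study's methods, namely an absolute log2 fold change of 0.32 or more, p below 0.05, and q, the p adjusted by Benjamini-Hochberg over all 16637 genes, below 0.1. By these rules, 0.643% of all genes passed for WT-O2 vs WT-RA, 0.012% in KO-O2 vs KO-RA, 10.4% in KO-RA vs WT-RA, 6.86% in KO-O2 vs WT-O2 and 0% for the interaction. The unadjusted p was below 0.05 for 4 of the 5 genes in WT-O2 vs WT-RA and for 1, Hbb-bt, in KO-O2 vs WT-O2. The share of all genes below that p is not given here, so these counts have no background to be set against. DESeq2 also called 0 of the 5. Without KO-O2 mouse GSD494, edgeR called all 5 in KO-O2 vs WT-O2, and 848 genes over all genes tested. The absence of calls in that comparison thus rests on 1 mouse. The 5 genes were chosen with their values known and varied together, so nothing is read from these counts of the 5.

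Within a group, the 5 genes varied more between mice than most genes did. The SD of log2 CPM within groups was 0.43 for Hba-a2, 0.39 for Hba-a1, 0.37 for Hbb-bt, 0.35 for Hbb-bs and 0.34 for Alas2, compared with a median of 0.15 over all genes tested. Between 81.2 and 87.8% of the genes tested had a smaller within-group SD than these members. The variation was shared. Across the 14 libraries, Pearson's r of log2 CPM was 0.99 between Hba-a1 and Hba-a2, 0.96 between Hbb-bs and Hbb-bt, and 0.96 between Hba-a1 and Hbb-bs, and it lay between 0.86 and 0.90 for Alas2 against each globin gene. After the group means were subtracted, r was 0.81 to 0.98 over all 10 pairs of members. These correlations describe 14 libraries, whose members share library, depth and, within a pair, reads.

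**Figure D3:**
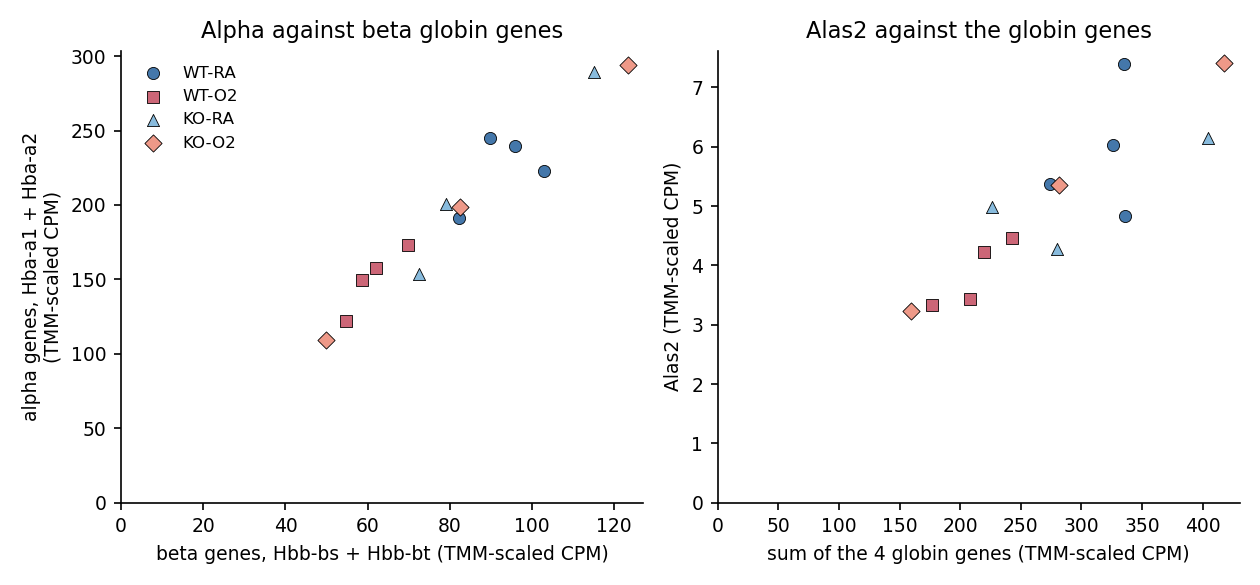
The left panel plots the summed alpha genes against the summed beta genes, and the right panel Alas2 against the sum of the 4 globin genes, all in TMM-scaled CPM with 1 point per mouse and both axes starting at 0. The points run along a line from KO-O2 mouse GSD494 to KO-O2 mouse GSD491, with the WT-O2 mice toward the low end.

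Because the genes moved together, the proportions among them stayed narrow while their sum varied 2.62-fold. The ratio of alpha to beta globin counts was 2.41 ± 0.18 (SD, n = 14), from 2.12 to 2.73, a coefficient of variation of 7.32% compared with 28.4% for the sum. By group it was 2.43 ± 0.24 for WT-RA, 2.45 ± 0.15 for WT-O2, 2.39 ± 0.23 for KO-RA and 2.33 ± 0.12 for KO-O2, and the groups overlapped. Hba-a1 supplied 45.5 to 50.2% of the alpha counts, with a mean of 47.6 ± 1.43% (SD, n = 14). Alas2 was at 14.4 to 22.1 counts per 1000 globin counts, with a mean of 18.4 ± 2.36 (SD, n = 14). By group, the Alas2 proportion was 18.7 ± 3.19 for WT-RA, 18.2 ± 1.20 for WT-O2, 17.5 ± 3.92 for KO-RA and 19.0 ± 1.26 for KO-O2. Alas2 was thus lower in WT-O2 in about the same measure as the globin genes.

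The share of the minor beta gene varied about as little, with a coefficient of variation of 6.57% over the 14 libraries, and it rested on 166 to 407 Hbb-bt counts per library. Hbb-bt made up 10.5, 10.7, 10.7 and 9.59% of the beta counts in the WT-RA mice and 11.2, 11.6, 11.4 and 10.7% in the WT-O2 mice. It made up 10.8, 12.3 and 11.1% in the KO-RA mice and 11.8, 12.2 and 11.5% in the KO-O2 mice. All 6 KO libraries lay above all 4 WT-RA libraries, while the WT groups overlapped. The gap was narrow, from 10.71% in WT-RA mouse GSD400 to 10.79% in KO-RA mouse GSD489, and small beside the SDs. The means were 10.4 ± 0.52% for WT-RA, 11.2 ± 0.40% for WT-O2, 11.4 ± 0.81% for KO-RA and 11.8 ± 0.38% for KO-O2. This proportion was described after its values were seen and was not tested, and it depends on how reads were split within the pair.

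**Figure D4:**
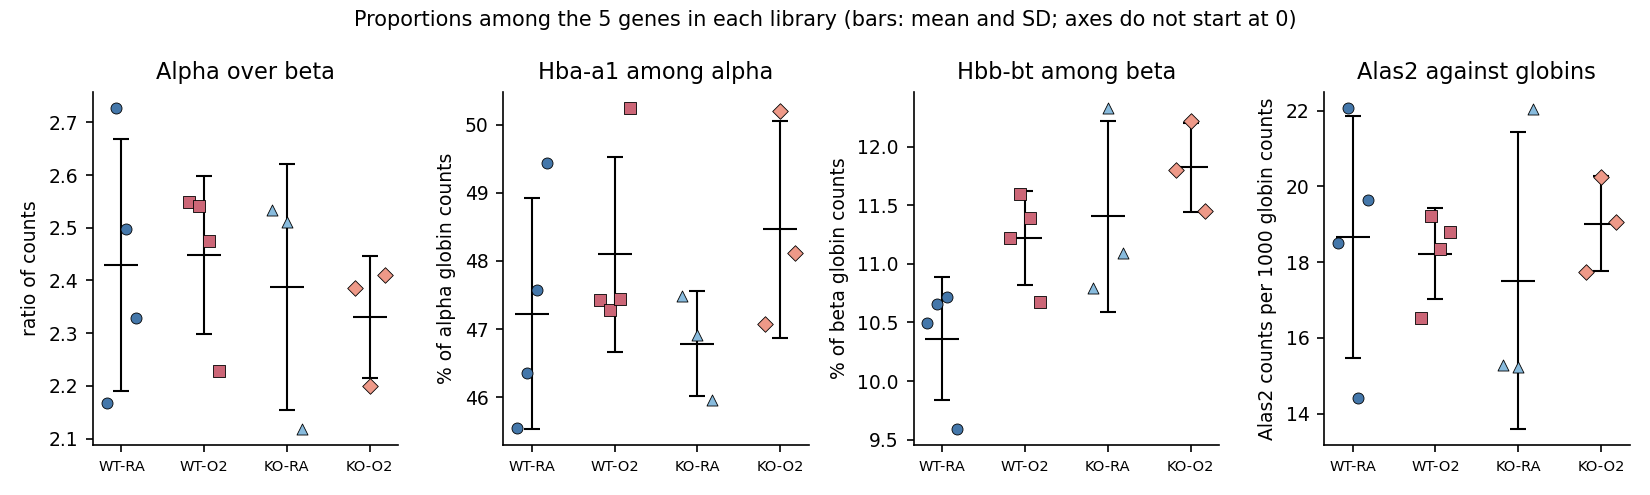
The panels show, for each mouse and by group, the ratio of alpha to beta counts, the percent of alpha counts from Hba-a1, the percent of beta counts from Hbb-bt, and Alas2 counts per 1000 globin counts, with bars for the mean and SD. The groups overlap in the panels for alpha over beta, Hba-a1 and Alas2, while the percent of beta counts from Hbb-bt is at most 10.7 in WT-RA and at least 10.8 in the KO groups, a narrow gap.

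Among the 14460 genes with a mean of at least 1 CPM, the gene outside the 4 globins whose log2 level was most like the log2 globin sum over the 14 libraries was Alas2, with Pearson's r of 0.89 and Spearman's rho of 0.87. After the group means were subtracted, its r was 0.84 and its rank 6. The next 10 genes were Tmem140 (r = 0.85), Ngly1 (0.82), Srarp (0.82), Foxl2 (0.82), Fam89a (0.81), Dad1 (0.81), Srf (0.81), Timmdc1 (0.80), Esam (0.79) and Crb2 (0.79). Ngly1 removes sugar chains from misfolded proteins, Dad1 is a subunit of the enzyme that attaches them, Srf is a transcription factor of growth and muscle genes, and Esam is an adhesion molecule of endothelial cells and platelets. Of these 10, Tmem140 and Fam89a kept an r above 0.8 without the 2 libraries farthest from the median globin level, GSD408 and GSD494. Alas2 kept 0.82. None of the 10 was on the lists of red cell genes examined here. For the erythroid-restricted list this was largely fixed beforehand, since only Tal1 reached a mean of 1 CPM and could be ranked. With so many genes ranked over so few libraries, the order is a description.

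Other transcripts of red cells were scarce. The embryonic globins Hba-x, Hbb-y and Hbb-bh1 had at most 3 counts in any library, and Hbb-bh2 had 0 in all 14, which allows up to 3 counts in a library. Of 19 erythroid-restricted genes measured, 14 were below the filter on low counts, among them Gata1 and Klf1 (erythroid transcription factors). These 14 together had 26 to 62 counts per library, with medians of 39.5 for WT-RA, 36.5 for WT-O2, 34 for KO-RA and 31 for KO-O2, and the groups overlapped. These sums were too small to be tested gene by gene.

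The 5 genes of the erythroid-restricted list that could be tested were Slc4a1, Epb42, Tal1, Ermap and Icam4. Tal1 is also used by endothelial cells and some neurons, so the values of this list are not a measure of red cells alone. In WT-O2 vs WT-RA edgeR called 0 of them (1 with an unadjusted p below 0.05, and 0 by DESeq2), and their median log2 fold change was 0.05, compared with -0.01 over all genes. In KO-O2 vs KO-RA it also called 0 (0 with an unadjusted p below 0.05, and 0 by DESeq2). Slc4a1, the anion exchanger band 3 of the red cell membrane, was at 0.65, 0.42, 0.74 and 0.18 CPM in WT-RA and at 0.48, 0.39, 0.74 and 0.46 in WT-O2. It was at 0.89, 1.61 and 0.82 CPM in KO-RA and at 1.43, 0.73 and 1.01 in KO-O2. It rose in KO-RA vs WT-RA, with a log2 fold change of 1.14 (SE 0.41, q = 0.0952 by edgeR), and every KO-RA mouse was above every WT-RA mouse. The corresponding value in KO-O2 vs WT-O2 was 1.03 (SE 0.41), with q = 0.175, which passed the limit on fold but not the limit on q. With hyperoxia in WT, Slc4a1 differed by 0.05 (SE 0.41) on the same scale. The KO-RA vs WT-RA call was lost without WT-RA mouse GSD399 or GSD401 or any of the 3 KO-RA mice, with q of 0.105 to 0.367 by edgeR.

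Tal1, a transcription factor of erythroid and endothelial cells that some neurons also use, fell in KO-O2 vs WT-O2, from 4.96 ± 0.88 CPM (SD, n = 4) to 2.83 ± 0.44 (SD, n = 3). The edgeR log2 fold change was -0.81 (SE 0.20, q = 0.0321), and the call was lost without KO-O2 mouse GSD491 or GSD495, with q of 0.125 to 0.135. Epb42, Ermap and Icam4, genes of red cell membrane proteins, passed in no comparison. Their mean levels were low, at 0.23, 0.85 and 0.69 CPM. In WT-O2 vs WT-RA the edgeR log2 fold change was -0.66 (SE 0.56) for Epb42, 0.71 (SE 0.31) for Ermap and 0.01 (SE 0.28) for Icam4. The genes of this list thus had no shared direction there, and for Slc4a1 and Icam4 the log2 fold change was smaller than its SE. With SEs of 0.41 for Slc4a1 and 0.56 for Epb42, a change of the size of the globin genes was not resolved for either.

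Genes of reticulocytes that brain cells also express were measured well, and all 14 were tested. In WT-O2 vs WT-RA edgeR called 0 (0 with an unadjusted p below 0.05, and 0 by DESeq2), with a median log2 fold change of 0.02. In KO-RA vs WT-RA it called 4 of the 14, among them Fam210b at 0.36, which was higher, and Ank1 at -0.38 and Slc25a37 at -0.45, which were lower. In KO-O2 vs WT-O2 it called 2, with Fam210b at 0.34 higher and Ank1 at -0.46 lower. Ank1 is an ankyrin, Slc25a37 is mitoferrin, which brings iron into mitochondria, and Fam210b is a mitochondrial protein of haem-making cells. These genes moved in both directions. Single mice decided several of the calls, which edgeR lost in KO-RA vs WT-RA without any of 3 mice for Fam210b, 3 for Ank1 and 4 for Slc25a37, KO-RA mouse GSD489 being among them for each of these genes. In KO-O2 vs WT-O2 the call was lost without any of 6 mice for Fam210b (q up to 0.208) and without KO-O2 mouse GSD495 for Ank1 (q = 0.108). For comparison, 10.4% and 6.86% of all genes were called in the same comparisons.

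Genes of haem synthesis other than Alas2 were all measured well enough to be tested. In WT-O2 vs WT-RA, edgeR called 0 of 10 (2 with an unadjusted p below 0.05, and 0 by DESeq2), and their log2 fold changes ran from -0.36 to 0.14, with a median of -0.01. Alas1, the form of the first enzyme found in all cells, was at 59.2 ± 0.63 CPM in WT-RA and at 65.4 ± 2.66 in WT-O2 (SD, n = 4 each), a log2 fold change of 0.14 with q = 0.232. In KO-O2 vs KO-RA edgeR called 0 of 10 (1 with an unadjusted p below 0.05, and 0 by DESeq2). Cpox, coproporphyrinogen oxidase of the mitochondrial part of the pathway, fell in KO-RA vs WT-RA from 54.9 ± 11.3 CPM (SD, n = 4) to 38.5 ± 1.58 (SD, n = 3), with a log2 fold change of -0.51 (SE 0.14, q = 0.0263 by edgeR). No other gene of this list was called in any comparison. That is 1 of 10 genes in KO-RA vs WT-RA, where 10.4% of all genes tested were called. Cpox was also the gene at -0.36 in WT-O2 vs WT-RA (q = 0.241 by edgeR), being at 42.8 ± 4.39 CPM in WT-O2 (SD, n = 4).

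Of 20 genes that handle haem and iron, 17 were tested. In WT-O2 vs WT-RA edgeR called 0 (3 with an unadjusted p below 0.05, and 1 by DESeq2), with a median log2 fold change of 0.01. Hmox1, the inducible haem oxygenase that breaks down haem, was at 4.47 ± 0.62 CPM in WT-RA and 4.59 ± 0.37 in WT-O2 (SD, n = 4 each), a value picked out after it was seen. Hp and Hpx, the plasma carriers of free hemoglobin and haem, were below the filter. Trf, transferrin, which oligodendrocytes and choroid plexus make in brain, fell in KO-RA vs WT-RA, at a log2 fold change of -1.91 (SE 0.41, q = 0.00861), and in KO-O2 vs WT-O2, at -1.47 (SE 0.40, q = 0.0474), both by edgeR. The second of these calls was lost without WT-O2 mouse GSD408 or KO-O2 mouse GSD494 or GSD495, with q of 0.14 to 0.174. In KO-O2 vs KO-RA edgeR called 0 of 17 (1 with an unadjusted p below 0.05, and 0 by DESeq2).

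**Figure D5:**
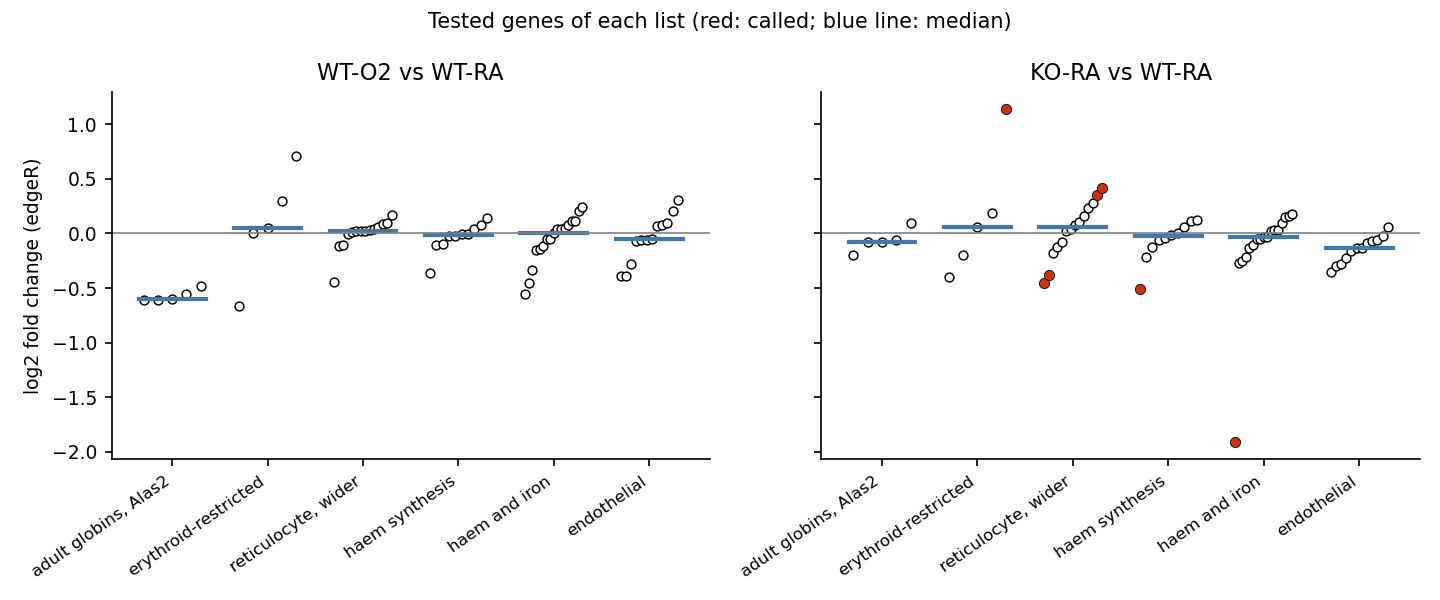
Each point is the edgeR log2 fold change of 1 tested gene in WT-O2 vs WT-RA (left) and KO-RA vs WT-RA (right), grouped by list, with called genes in red and each list's median as a blue line. In the left panel the 5 chosen genes lie between -0.61 and -0.48, while the medians of the other lists plotted (erythroid-restricted, reticulocyte, haem synthesis, haem and iron, and endothelial genes) lie between -0.05 and 0.05, and no plotted gene is called.

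Globins of other tissues were measured beside those of blood. Neuroglobin, Ngb, a globin of neurons, was at 3.16 ± 1.15 CPM in WT-RA and 4.57 ± 0.57 in WT-O2 (SD, n = 4 each), and at 1.75 ± 0.17 in KO-RA and 1.96 ± 0.16 in KO-O2 (SD, n = 3 each). It fell in KO-RA vs WT-RA, at a log2 fold change of -0.85 (SE 0.25, q = 0.0432), and in KO-O2 vs WT-O2, at -1.22 (SE 0.24, q = 0.00839), by edgeR. The KO-RA vs WT-RA call was lost without WT-RA mouse GSD401 or KO-RA mouse GSD490 or GSD496, with q of 0.11 to 0.145. In WT-O2 vs WT-RA the log2 fold change of Ngb was 0.53 (q = 0.329 by edgeR). Cytoglobin, Cygb, and myoglobin, Mb, were called in no comparison. Mb, the oxygen store of muscle, was at 0.53 ± 0.10 CPM in WT-RA and 0.33 ± 0.06 in WT-O2 (SD, n = 4 each), a log2 fold change of -0.67 (SE 0.34, q = 0.452 by edgeR), which has the sign of the values of the blood globins. Cygb had the opposite sign, at 44.5 ± 7.93 and 55.8 ± 6.18 CPM (SD, n = 4 each) and a log2 fold change of 0.33 (SE 0.11, q = 0.245 by edgeR). Among genes of erythropoietin and oxygen sensing, Epo had at most 2 counts in any library, and Epor, its receptor, was at 2.41 ± 0.48 CPM in WT-RA and 2.28 ± 0.23 in WT-O2 (SD, n = 4 each). Egln3, a prolyl hydroxylase that marks HIF for destruction, fell in KO-RA vs WT-RA, at a log2 fold change of -0.64 (SE 0.14, q = 0.0121), and in KO-O2 vs WT-O2, at -0.55 (SE 0.14, q = 0.0387), by edgeR. The KO-O2 vs WT-O2 call was lost without WT-O2 mouse GSD408 or any KO-O2 mouse, with q of 0.104 to 0.125. No other gene of this list was called.

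Markers of other blood cells and of vessels were examined beside the globins. The 12 endothelial markers summed to 361.48 to 466.69 CPM in WT-RA and 382.31 to 485.96 in WT-O2, and edgeR called 0 of 12 in WT-O2 vs WT-RA (3 with an unadjusted p below 0.05), with a median log2 fold change of -0.05. The 3 genes below that p were all lower in WT-O2, with edgeR log2 fold changes of -0.39 for Ly6c1, -0.39 for Slco1a4 and -0.28 for Abcb1a. Of the 12 genes, 7 had log2 fold changes below 0 and 5 above 0. Slc2a1, the glucose carrier of brain endothelium, was at 78.4 ± 19.0 CPM in WT-RA and 97.1 ± 26.9 in WT-O2, and Flt1, a VEGF receptor, at 52.6 ± 5.76 and 50.88 ± 10.02 (SD, n = 4 each). Neutrophil markers summed to 7.17 to 8.62 CPM in WT-RA and 7.87 to 9.85 in WT-O2, and platelet markers to at most 11.97 and 10.76 CPM. Markers of lymphocytes summed to 14.29 to 43.66 CPM in WT-RA and 13.25 to 20.03 in WT-O2, and those of monocytes to 3.41 to 8.03 and 4.49 to 5.90 CPM. The most abundant neutrophil markers were Csf3r, at 5.28 ± 0.55 CPM in WT-RA and 5.20 ± 0.42 in WT-O2, and Prtn3, at 0.97 ± 0.31 and 1.27 ± 0.20, and those of monocytes F13a1, at 4.12 ± 1.88 and 4.14 ± 0.57, and Ly6c2, at 0.63 ± 0.26 and 0.44 ± 0.08 (SD, n = 4 each). For each of these 5 lists the sums of the WT groups overlapped. Over all genes tested, 3.04% were lower in WT-O2 without overlap, and the globin genes were chosen with their values known, so nothing is read from this. None of these lists had a gene called by edgeR in WT-O2 vs WT-RA, with an unadjusted p below 0.05 for 1 neutrophil, 3 platelet, 1 lymphocyte and 0 monocyte genes. DESeq2 called 2 genes of the 5 lists. Of the 7 neutrophil genes tested, 6 had log2 fold changes above 0 in WT-O2 vs WT-RA (median 0.50 on the log2 scale), and 6 did in KO-O2 vs KO-RA (median 0.33). Among them Lcn2, lipocalin 2, was at 0.17 ± 0.11 CPM in WT-RA and 0.50 ± 0.34 in WT-O2 (SD, n = 4 each), and its log2 fold change was 1.53 (SE 0.61, q = 0.323) in WT and 2.01 (SE 0.60, q = 0.861) in KO by edgeR. In KO-RA vs WT-RA, Pf4, platelet factor 4, rose by 1.02 on the log2 scale (SE 0.35, q = 0.0869 by edgeR). Trbc2, a T cell receptor constant gene, was at 12.99 ± 10.26 CPM in WT-RA (SD, n = 4) and 0.47 ± 0.05 in KO-RA (SD, n = 3), a log2 fold change of -4.79 (SE 0.70, q = 0.000852 by edgeR). Of 6 lymphocyte genes tested, 1 was called there, where 10.4% of all genes were, and the median of the 6 was -0.17. Cd3e was at -0.10, Cd3d at -0.27 and the B cell gene Cd79b at 1.08. Trbc2 thus did not stand for the list. Trbc2 also fell in KO-O2 vs WT-O2, at -2.44 (SE 0.69, q = 0.0532), a call lost without KO-O2 mouse GSD494 or GSD495. The Pf4 call was lost without any of 5 mice, WT-RA mouse GSD399 or GSD400 or any KO-RA mouse, with q of 0.103 to 0.221.

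Several measures moved with the groups, and their part in the results was not tested. Markers of regions differed by genotype, in that edgeR called all 8 hippocampus markers higher and all 6 striatum markers lower in KO-RA vs WT-RA, and the hippocampus markers summed to 573.26 to 849.37 CPM in WT-RA and 1234.95 to 1559.68 in KO-RA. The striatum markers summed to 348.83 to 470.65 CPM in WT-RA and 48.3 to 137.7 in KO-RA. Of 6 thalamus markers, 4 were called lower in KO-RA vs WT-RA, with sums of 108.72 to 680.33 and 94.19 to 112.34 CPM in WT-RA and KO-RA. In WT-O2 vs WT-RA edgeR called none of these region markers. There 7 of 8 hippocampus markers had log2 fold changes above 0 (3 with an unadjusted p below 0.05), their median being 0.33 on the log2 scale, and they summed to 772.92 to 971.84 CPM in WT-O2, which overlapped WT-RA. Of 8 meninges markers, 6 had log2 fold changes above 0 in that comparison (1 with an unadjusted p below 0.05, and 0 called), with a median of 0.35 and sums of 151.81 to 307.03 CPM in WT-RA and 250.02 to 349.35 in WT-O2. Choroid plexus markers summed to 952.94 to 2490.99 CPM in WT-RA, 1013.19 to 1527.03 in WT-O2, 40.25 to 3349.72 in KO-RA and 112.01 to 3475.87 in KO-O2. None of the 10 choroid plexus genes was called by edgeR in any comparison, and none had an unadjusted p below 0.05. The Y-linked gene Ddx3y was at 37.5 to 46.7 CPM in 6 libraries and at most at 0.57 in the others. It was high in 1 of 4 WT-RA, in 3 of 4 WT-O2 libraries, and in 1 library of each KO group. Among WT libraries with high Ddx3y, the globin sum was 273.7 CPM in the WT-RA mouse and 177.1 to 242.9 in the WT-O2 mice. Among those with low Ddx3y, it was 325.9 to 335.6 CPM in the 3 WT-RA mice and 219.9 in the WT-O2 mouse. Each of these sets holds a group of 1 mouse, so WT-O2 and WT-RA were not compared within them.

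The globin level could also be carried along as a covariate when other genes are tested. With the log2 globin sum in the edgeR model, the count of calls for WT-O2 vs WT-RA went from 107 to 1. All 107 genes kept their sign and an unadjusted p below 0.05, their median log2 fold change in the called direction was 0.52 without and 0.54 with the covariate, and the median SE went from 0.11 to 0.13. The R-squared of the log2 globin sum on the group was 0.803 in the WT libraries and 0.024 in the KO libraries, so in WT the covariate and the group largely carried the same information. In KO-RA vs WT-RA, 1657 genes were called with the covariate and 1738 without, 1607 of them in both.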

How the data were processed

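RNA-seq of hippocampus was analysed from 8 WT mice (4 in each exposure) and 6 KO mice (3 in each exposure), grouped by the titles of their public records. The authors deposited estimated counts in 1 table, which per their methods were made with kallisto against GRCm39 and summed to genes with tximport. Versions and count scaling are not given in the sources used here. In each library 41 to 43.2% of values were not whole numbers, and counts were rounded. Symbols were matched for 35825 of 36118 genes. Ahsp was not analysed here. Some genes that enter the list counts are not reported here by name. Genes were filtered with filterByExpr (16637 left), scaled by TMM and fitted in all libraries together (edgeR 4.0.16, R 4.3.3), each group having its own coefficient and no covariate being used. DESeq2 1.42.0, which the authors used, was an alternative. All tests were two-sided, and p-values measure the spread between these mice. Log2 CPM used a prior count of 2. Levels of the 5 genes are TMM-scaled CPM. Scripts were tested on simulated data. No replicate pair agreed within sampling noise, with a chi-square per degree of freedom of 6.93 to 56.1.

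The 5 genes and all gene lists were chosen with earlier results of these data known. Named from the lists of red cell, haem, oxygen, blood and vessel genes were the genes called in any comparison, at most the 4 with the smallest q per comparison, or the 2 most abundant where none was called, and the 10 genes most correlated with the globin sum. Alas1, Hmox1, Epor, Epo, Cygb, Mb, Tfrc, Lcn2 and the genes given as examples of low counts were named beyond this rule, after their values were seen. Ly6c1, Slco1a4, Abcb1a, Cd3e, Cd3d and Cd79b were likewise named after their values were seen. Alternatives were other scalings, no filter, DESeq2, the globin level as a covariate, mouse GSD408 as room air, group medians, and each mouse left out.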

Additional observations from a re-analysis of the deposited data

Results flagged for a closer look

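Among 20 sets of 4 values tested for a single far value by Dixon's ratio, 2 were past the critical value of 0.829, and chance alone flags about 1 in 20. The summed globin level of WT-RA mouse GSD401, 273.7 CPM, lay far below the other WT-RA mice, which were at 325.90 to 335.59 CPM. It was the WT-RA mouse with high Ddx3y. The share of alpha globin counts given to Hba-a1 in WT-O2 mouse GSD408, 50.2%, lay far above the other WT-O2 mice, which were at 47.3 to 47.4%. GSD408 is the mouse whose title and treatment field disagree, and KO-O2 mouse GSD494 had a like share, at 50.2%.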

How the results depend on the processing

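Of 509 recomputed values of levels, ratios and list counts, 463 were kept and 46 moved. A level or ratio was kept if it moved by less than the spread between mice, even where its sign changed. A list count was kept if it stayed equal or nearly so. Reversal of sign was recorded only for named list genes that were called and for Tfrc, outside the 509 values, and 0 reversed. It was not recorded for the 4 globin genes and Alas2. Of these, Hba-a1 ran from -0.42 to 0.22 in KO-O2 vs KO-RA with 1 mouse left out. Other scalings changed the WT-O2 vs WT-RA difference of the globin sum to between -0.59 and -0.58, medians to -0.63 and mouse GSD408 as room air to -0.34. Leaving out 1 mouse gave -0.66 to -0.50 for it, and -0.70 to -0.49 for Alas2. The sum differed by -0.48 to 0.22 in KO-O2 vs KO-RA, by -0.33 to 0.09 in KO-RA vs WT-RA, by 0.01 to 0.70 in KO-O2 vs WT-O2 and by 0.11 to 0.81 in the interaction when 1 mouse was left out, so the sign changed in KO-O2 vs KO-RA and KO-RA vs WT-RA. Hba-a1 over Hbb-bs alone was 1.29. Erythroid-restricted genes in KO-RA vs WT-RA were 2 with no filter (1 as reported). Haem and iron genes in WT-O2 vs WT-RA were 1 by DESeq2 and 1 with no filter (0 as reported), the gene being Tfrc (edgeR -0.46, q = 0.121, DESeq2 -0.45, q = 0.0143), named after its values were seen. In KO-O2 vs WT-O2 they were 0 with the globin covariate and 0 with GSD408 as room air (1 as reported), and reticulocyte genes were 1 under both (2 as reported). Other blood cell and vessel genes were 2 by DESeq2 and 1 with no filter in WT-O2 vs WT-RA (0 as reported), and 0 with GSD408 as room air in KO-O2 vs WT-O2 (1 as reported). Leaving out 1 mouse gave 0 to 1 erythroid-restricted genes in KO-RA vs WT-RA and in KO-O2 vs WT-O2, 0 to 1 haem synthesis genes and 0 to 1 haem and iron genes in WT-O2 vs WT-RA and in KO-O2 vs WT-O2, 0 to 4 reticulocyte genes in KO-RA vs WT-RA and 0 to 3 in KO-O2 vs WT-O2, and 0 to 2, 1 to 4 and 0 to 2 other blood cell and vessel genes in WT-O2 vs WT-RA, KO-RA vs WT-RA and KO-O2 vs WT-O2. Of the 4 globin genes and Alas2, 0 to 5 were called in KO-O2 vs WT-O2. All 5 were called without KO-O2 mouse GSD494, where 848 genes were called over all genes. Over all genes, WT-O2 vs WT-RA called 107, or 306 by DESeq2, 1 with the covariate, 6 with GSD408 as room air and 13 to 272 with 1 mouse left out. KO-O2 vs KO-RA called 2, or 13 by DESeq2, 6 with no filter, 0 with GSD408 as room air and 1 to 4 with 1 mouse left out. The causes were not tested. No paired analysis was possible because each mouse has a number of its own and the groups share none.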
